A study of Homo sapiens with 45 samples.

Results

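Complex I is the first enzyme of the mitochondrial respiratory chain, and the 50 genes described here encode 36 of its nuclear subunits and 14 of the factors that assemble it. They were taken from the 64485 genes of the deposited count table by matching Ensembl identifiers, without their version suffix, to a list of gene symbols through GENCODE 29 (GRCh38). All 50 had a row in the table. Genes entered by symbol and not by a measured value, but the list was chosen with earlier results of these data known. The subunits that the mitochondrial genome encodes are not in the list.

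Complex I takes electrons from NADH through a flavin and a chain of iron-sulphur clusters in its peripheral arm and passes them to ubiquinone, and this transfer drives protons out of the mitochondrial matrix through the membrane arm. The core subunits are conserved from bacteria and do the chemistry, while the accessory subunits surround them and hold the arms together. The enzyme is put together from separate modules, each with its own assembly factors, and the NAD+ that it regenerates keeps the tricarboxylic acid cycle running, also when the cycle is fed by glutamine.

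The study sequenced total RNA, depleted of ribosomal RNA, from 15 untreated breast cancer cell lines labelled as epithelial and wild-type, with 3 libraries a line. The 5 lines kept in L-15 medium were MDA-MB-436, MDA-MB-157, MDA-MB-468, MDA-MB-231 and MDA-MB-453, and the 8 lines kept in RPMI 1640 were HCC38, HCC70, HCC1143, BT-549, HCC1395, HCC1187, HCC1937 and HCC1806. BT-20 alone was grown in EMEM and Hs578T alone in DMEM. L-15 medium holds galactose and pyruvate and no glucose. All media held fetal bovine serum, penicillin and streptomycin, insulin was added for BT-20, BT-549 and MDA-MB-436, and glutathione for MDA-MB-436. The title of the series links complex I to breast cancer cells with high MYC, but the labels give no MYC class, so MYC was used here as a measured level.

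The 45 libraries held 2312138 to 14653677 counts with a median of 6263573, and the 50 genes together took 0.260% to 0.430% of the counts of a library. Replicate 2 of Hs578T stood apart, with the fewest counts, the highest scaling factor (1.48, against 0.803 for the lowest) and the most genes detected (40272). Without it, 46 complex I genes still differed among the lines, beside 20753 of all 21102 genes tested. In Hs578T, 11 were then higher and 11 lower, beside 5285 and 4406 of all genes. With it, the numbers were 9 and 13, beside 6481 and 4980 of 20587 genes. NDUFS3 and NDUFAB1, which were lowest in Hs578T with it, were also lowest there without it. NDUFA1 and NDUFB11 were lowest in Hs578T with it, but without it in HCC1395 and HCC38. Nothing in the labels tells whether the 3 libraries of a line are separate cultures, and the p-values rest on the spread between libraries, which may be technical. The label "epithelial" was checked against EPCAM, CDH1, KRT8, KRT18 and KRT19. Their summed level lay between 7.48 CPM (counts scaled to a common library size) in BT-549 and 9160 CPM in BT-20, and it was also low in Hs578T (135 CPM), MDA-MB-436 (163 CPM), HCC1395 (265 CPM) and MDA-MB-157 (318 CPM). The summed mesenchymal markers VIM, ZEB1 and FN1 ran from 8.18 CPM in HCC1806 to 6871 CPM in Hs578T. Blood markers summed to at most 5.89 CPM, endothelial markers to 0.795 to 121 CPM and fibroblast markers to 2.09 to 553 CPM. Sequencing runs 1 and 2 held MDA-MB-231, Hs578T, HCC1143 and HCC38, and runs 3, 4 and 5 held the remaining 11 lines.

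Of the 50 genes, 47 had enough counts to be tested, and the other 3 were almost without counts in every library. These were NDUFS1, the largest core subunit, with 15 counts over all 45 libraries, the accessory subunit NDUFA6 with 5 and the membrane subunit NDUFA3 with 38. The protein-coding genes next to them were as empty. Beside NDUFS1 on chromosome 2, the translation factor gene EEF1B2 had 14 counts, INO80D 3 and ZDBF2 3. Beside NDUFA6 on chromosome 22, SMDT1 had 0 counts and CYP2D6 had 6. Beside NDUFA3 on chromosome 19, TSEN34 had 3 counts, TFPT had 6, and RPS9, a ribosomal protein gene that every cell uses, had 360 over 45 libraries. Since genes that every cell uses are missing from the same stretches, these 3 counts say nothing about whether the lines express the subunits, and the 3 genes enter no comparison.

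Levels of different genes were compared as CPM per kilobase of annotated exon, from the median over the 15 lines. The 47 genes covered a ratio of 649 from the highest to the lowest, and of 302 with the longest transcript as the length, where NDUFA9 was the lowest (1.89 CPM per kilobase) and NDUFA7 the next (2.07 CPM per kilobase). NDUFS5, a small subunit on the outer face of the membrane arm, was the highest with 571 CPM per kilobase. NDUFS4, an accessory subunit that stabilises the NADH-oxidising module, followed with 133 CPM per kilobase, and NDUFA1, a single-helix membrane subunit encoded on the X chromosome, with 130 CPM per kilobase. The lowest was the accessory subunit NDUFA7 with 0.880 CPM per kilobase, below NDUFA9 with 1.52, NDUFA11 with 1.72 and NDUFS7 with 1.99 CPM per kilobase. Part of the exon length of some members also belongs to another gene on the same strand, which makes their counts uncertain. The shared part was 33.8% for NDUFB8, 32.3% for NDUFA7 (a read-through gene), 28.4% for NDUFV2, 21% for NDUFA13, 19.6% for NDUFS3, 18.5% for NDUFC1 and 16.3% for NDUFC2.

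**Figure D1:**
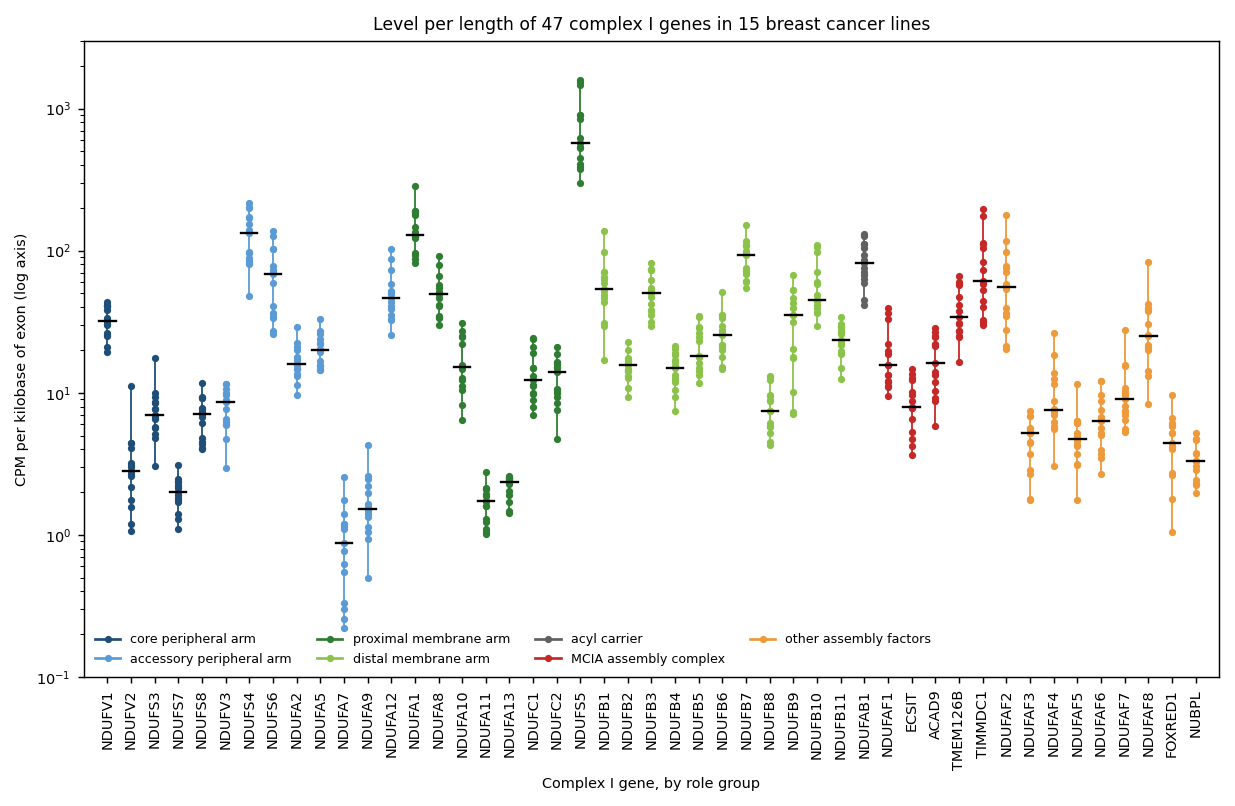
CPM per kilobase of exon (log axis) for the 47 tested complex I genes, grouped by role; each point is the mean of 1 line, the vertical line spans the 15 lines and the black bar is their median. NDUFS5 stands highest with a median of 571 CPM per kilobase and NDUFA7 lowest with 0.880 CPM per kilobase.

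The 15 lines differed in nearly every complex I gene. By edgeR's quasi-likelihood F test over the 15 lines with Benjamini-Hochberg adjustment, 46 of 47 genes differed at an adjusted p under 0.05, beside 98.2% of all 20587 genes tested, so this share was near the background. NDUFA13, a membrane arm subunit also known as a cell death regulator, was the exception (adjusted p = 0.268). The size of the differences was smaller than for most genes. The ratio of the highest to the lowest line mean had a median of 4.05 over the 47 genes and lay between 1.83 (NDUFA13) and 11.5 (NDUFA7). Over 10695 protein-coding genes with at least 10 counts in each line the median ratio was 5.94, and 26.3% of them had a ratio under that of the median complex I gene. The complex I genes were not held to this limit, which NDUFA7 did not meet, and the comparison was not matched by level. By role, the median ratio was 2.95 in the core peripheral arm (5 genes tested), 4.26 in the accessory peripheral arm (8), 3.50 in the proximal membrane arm (8), 2.99 in the distal membrane arm (11), 4.17 in the MCIA complex that builds the membrane arm (5) and 6.59 among the other assembly factors (9).

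The same fit then set each line against the average of the 14 others. In such bulk libraries, fewer cells that express a gene and less of its RNA per cell cannot be told apart. Over 47 genes and 15 lines, 223 of 705 comparisons were higher at an adjusted p under 0.05 (31.6%, against 30.4% over all genes) and 218 were lower (30.9%, against 23.9%). With a log2 fold change of at least 1 as well, 35 were higher (4.96%, against 16.2% over all genes) and 38 lower (5.39%, against 12.5%). All genes include many of low level and of other types, so the shares describe and do not match level. Of the 47 genes, 30 had at least 1 such change, and the share of all genes with at least 1 was not counted. The assembly factors held 33 of these 73 changes in 210 comparisons (15.7%) and the subunits 40 in 495 (8.08%). MDA-MB-436 had 12 of them among its 47 genes (27.2% of all genes changed that far in this line), HCC70 had 9 (40.6% of all genes) and HCC1187 had 7 (28.9%), while HCC1395 had 1 (32.1%) and Hs578T had 2 (30.4%).

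**Figure D2:**
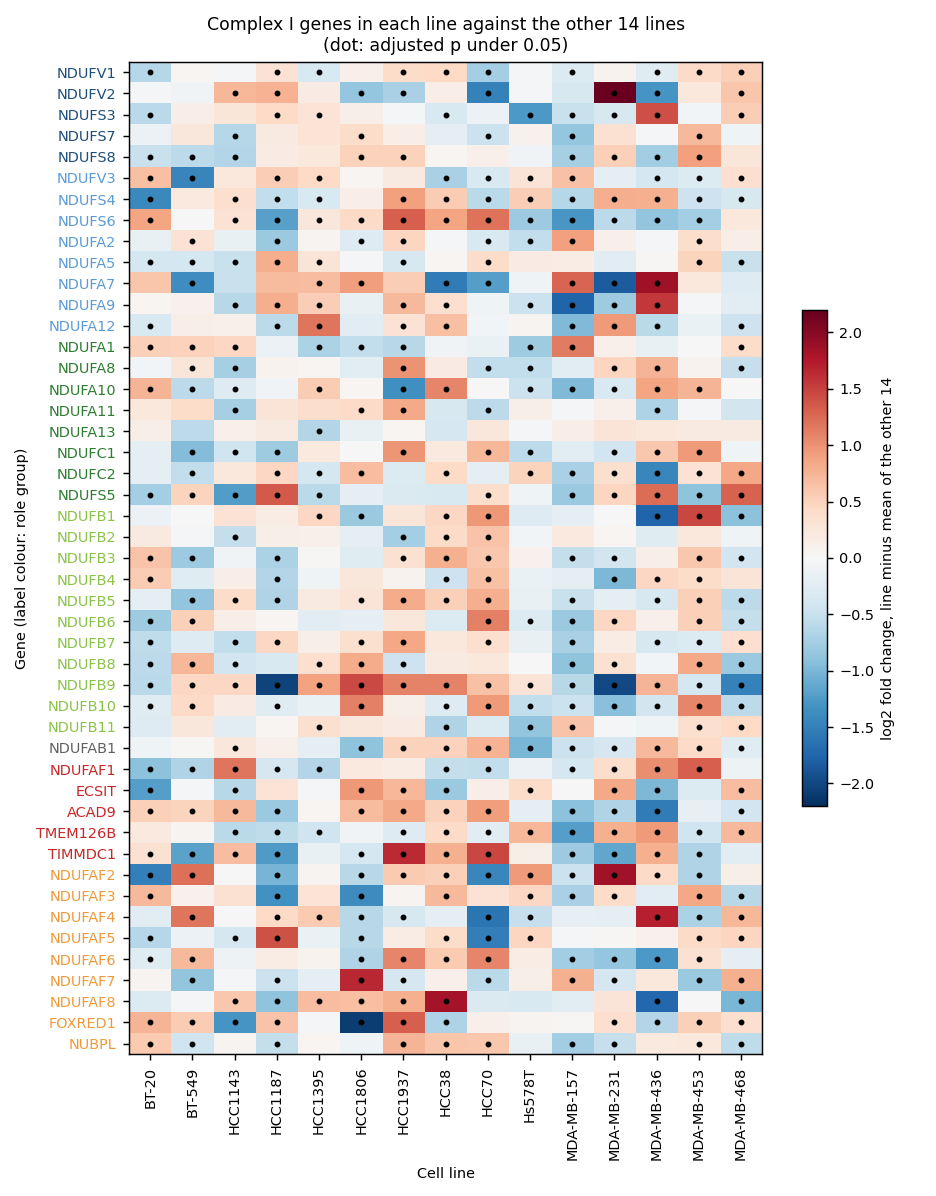
Log2 fold change of each line against the mean of the other 14 lines (red higher, blue lower) for the 47 tested complex I genes, in rows by role, with a dot where the adjusted p of edgeR was under 0.05. No line has 1 colour throughout, and MDA-MB-157 has the most blue cells with a dot (27 of 47).

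A few lines leaned one way across the set. In MDA-MB-157, 27 of 47 genes were lower and 6 higher than in the other lines, with a median log2 fold change of -0.47 against 0.07 over all genes tested. Of all genes, 26.2% were lower and 31.3% higher in that line. Among the 27 were 4 of 5 core peripheral arm genes, 7 of 11 distal membrane arm genes and 4 of 5 MCIA genes. MDA-MB-157 was also low in epithelial markers (318 CPM), high in mesenchymal ones (4742 CPM) and high in the 3 fibroblast markers (305 CPM in sum, against 553 CPM in Hs578T and 2.09 to 40.3 CPM in the other 13 lines), and their part in this was not tested. BT-549, HCC1395, Hs578T and MDA-MB-436, which were also low in epithelial and high in mesenchymal markers, had median log2 fold changes of 0.03, 0.07, -0.07 and -0.02 over the complex I genes, and Hs578T had 0.08 without its replicate 2. In HCC1937, 23 genes were higher and 9 lower (median log2 fold change 0.31, background 31% higher and 20.5% lower). In MDA-MB-453, 23 were higher and 11 lower (median 0.24, background 30.7% and 26%), with 8 of 11 distal membrane arm genes among the higher. In HCC38, 22 were higher and 9 lower (median 0.22, background 29.5% and 21.2%). In the other 11 lines the median log2 fold change of the set lay between -0.16 in BT-20 and 0.11 in HCC70. These medians depended on the setting. TMM factors from genes with 10 counts in every library moved the median of all genes most in HCC70 (by -0.21) and MDA-MB-157 (by 0.21). Over 11 settings, the median of the set lay between -0.50 and -0.26 in MDA-MB-157, 0.19 and 0.46 in HCC1937, 0.14 and 0.31 in MDA-MB-453, and 0.17 and 0.28 in HCC38. It kept one sign in BT-20 (-0.25 to -0.09) and MDA-MB-231 (0.02 to 0.13) too, and took both signs in the other 9 lines. The widest range was that of HCC1187, with -0.25 without replicate 1 of every line and 0.12 without replicate 3. The difference between the median of the set and that of all genes was -0.54 in MDA-MB-157 and -0.69 to -0.48 over the settings, and in MDA-MB-453 it was 0.15, but -0.15 without the expression filter. Without replicate 3 of every line, the lower genes numbered 2 in HCC1937 and 5 in HCC38, beside 2767 and 3007 of all 21300 genes tested. Without the expression filter the higher genes of MDA-MB-453 numbered 15, beside 9052 of all 55100 genes tested.

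Among the core subunits of the peripheral arm, NDUFV2, an iron-sulphur subunit of the NADH-oxidising module, varied most. In MDA-MB-231 it had 26.8, 30.7 and 32.9 CPM in the 3 libraries, against 1.77 (HCC70) to 15.5 CPM (HCC1187) with a median of 7.21 CPM in the 42 libraries of the other lines. The groups did not overlap, and the log2 fold change was 2.17 ± 0.15 (SE, adjusted p = 8.52e-17), the largest change of any complex I gene in 1 line. NDUFV2 was lower in HCC70 (2.90 ± 0.98 CPM, SD, n = 3) and in MDA-MB-436 (3.21 ± 0.36 CPM). The pseudogene of NDUFV2 in the annotation held counts equal to 18.6% of those of NDUFV2, so reads could have been split between them. NDUFV1, which binds NADH and the flavin next to NDUFV2, varied least in this group, with 220 ± 7.30 CPM in MDA-MB-468 and 97.5 ± 1.0 CPM in HCC70, a ratio of 2.26. NDUFS3, a core subunit without a cluster, was highest in MDA-MB-436 (64.7 ± 5.66 CPM) and lowest in Hs578T (11.2 ± 2.58 CPM). The iron-sulphur subunits NDUFS8 and NDUFS7, which pass electrons on towards ubiquinone, were both highest in MDA-MB-453, at 53.2 ± 4.14 CPM and 23.3 ± 7.39 CPM.

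Among the accessory subunits of the peripheral arm, NDUFA9, a nucleotide-binding subunit near the junction of the arms, had its low and its high extreme in different lines. In MDA-MB-157 it had 5.87, 5.71 and 3.92 CPM, against 8.59 (MDA-MB-231) to 49.0 CPM (MDA-MB-436) with a median of 15.9 CPM in the other 42 libraries. All libraries of MDA-MB-157 lay below all others, with a log2 fold change of -1.76 ± 0.15 (SE, adjusted p = 2.50e-14). In MDA-MB-436 the gene was higher by 1.56 ± 0.09 (adjusted p = 3.87e-19), with a mean of 44.6 ± 5.56 CPM. NDUFA7 rests on few reads, 398 over all libraries and 5 over the 3 libraries of MDA-MB-231. It had 1.64, 4.76 and 4.36 CPM in MDA-MB-436, against 0.174 (HCC38) to 3.10 CPM (HCC1806) with a median of 1.16 CPM elsewhere, so the groups overlapped through 1 library (log2 fold change 1.86 ± 0.26, adjusted p = 3.30e-08). NDUFA5, a subunit of the ubiquinone module, varied least with 326 ± 44.6 CPM in HCC1187 and 142 ± 12.3 CPM in HCC1143. NDUFV3, an accessory subunit of the NADH-oxidising module, was lower in BT-549 (18.7 ± 1.07 CPM) than in the other lines by 1.45 ± 0.12 on the log2 scale. The zinc-binding subunit NDUFS6 was higher in HCC1937 (200 ± 7.71 CPM) and HCC70 (185 ± 6.02 CPM) and lower in MDA-MB-157 (37.6 ± 3.80 CPM) and HCC1187 (39.3 ± 7.07 CPM), each by more than 1 on the log2 scale. NDUFA12 was highest in HCC1395 (186 ± 10.3 CPM). NDUFA2 was highest in MDA-MB-157 (43.4 ± 2.07 CPM), a line in which 27 of 47 members were lower.

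In the proximal membrane arm NDUFS5 varied most, with 869 ± 247 CPM in HCC1187, 837 ± 189 CPM in MDA-MB-468 and 798 ± 95.5 CPM in MDA-MB-436, against 163 ± 11.2 CPM in HCC1143. NDUFA10, a subunit related to nucleoside kinases, was lower in HCC1937 (61.2 ± 7.35 CPM, log2 fold change -1.34 ± 0.13), a line in which 23 of 47 members were higher. NDUFA1 was higher in MDA-MB-157 (218 ± 60.7 CPM, log2 fold change 1.14 ± 0.15), against the general direction of that line too. NDUFC2, a small membrane subunit, was lowest in MDA-MB-436 (12.6 ± 1.12 CPM). NDUFA13 had 7.08 ± 2.12 CPM in its highest line, MDA-MB-231, and 3.88 ± 0.38 CPM in its lowest, HCC1395. NDUFA8, NDUFA11 and NDUFC1 had no line with a log2 fold change of 1 or more and reached their highest mean in HCC1937, at 77.3, 13.5 and 47.4 CPM.

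In the distal membrane arm NDUFB9 differed from the other 14 lines in every line, higher in 9 and lower in 6. NDUFB9 encodes a subunit that binds an acyl carrier protein, and its gene lies on chromosome 8. It had 31.5, 32.5 and 23.0 CPM in HCC1187, against 23.0 (MDA-MB-231) to 295 CPM (HCC1806) with a median of 145 CPM in the other 42 libraries (log2 fold change -2.03 ± 0.12, adjusted p = 1.41e-19). The libraries of HCC1187 overlapped those of MDA-MB-231, where the mean was 29.9 ± 6.01 CPM (log2 fold change -1.98 ± 0.12), and lay below those of the other 13 lines. The next lowest was MDA-MB-468 with 41.4 ± 5.85 CPM. NDUFB1, a small single-helix subunit, had 45.7, 37.6 and 32.2 CPM in MDA-MB-436, against 57.7 (MDA-MB-468) to 366 CPM (MDA-MB-453) with a median of 125 CPM in the others, without overlap (log2 fold change -1.75 ± 0.18, adjusted p = 1.09e-11). NDUFB10, a cysteine-rich subunit on the outer face, was higher in HCC1806 (118 ± 9.18 CPM) and MDA-MB-453 (114 ± 7.74 CPM). NDUFB6 was higher by at least 1 on the log2 scale in HCC70 alone (71.2 ± 8.63 CPM). The remaining 7 genes of this arm, NDUFB2, NDUFB3, NDUFB4, NDUFB5, NDUFB7, NDUFB8 and NDUFB11, stayed within 1 log2 unit of the other lines in every line, and NDUFB2 varied least (101 ± 3.38 CPM in HCC70 and 41.5 ± 6.77 CPM in HCC1937). The acyl carrier protein NDUFAB1, which also serves mitochondrial fatty acid synthesis, had 211 ± 3.86 CPM in HCC70, the highest line, and 66.8 ± 7.51 CPM in Hs578T, the lowest.

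The assembly factors of the MCIA complex did not move as a block. TIMMDC1, a membrane protein of this complex, had 534 ± 79.3 CPM in HCC1937 and 477 ± 38.8 CPM in HCC70, against 82.4 ± 6.81 CPM in HCC1187. ACAD9, a relative of the fatty acid-oxidising dehydrogenases, was lowest in MDA-MB-436 (25.1 ± 7.86 CPM, log2 fold change -1.54 ± 0.16), the line in which TMEM126B was highest (161 ± 16.1 CPM) and NDUFAF1 was also higher (58.7 ± 6.84 CPM). NDUFAF1 was highest in MDA-MB-453 (70.8 ± 8.16 CPM). ECSIT, which is also an adaptor in innate immune signalling, was lowest in BT-20 (8.57 ± 1.58 CPM) and highest in HCC1806 (34.7 ± 5.92 CPM).

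The other assembly factors held 5 of the 10 largest single-line changes. NDUFAF2, a relative of the subunit NDUFA12 that stands in its place until late in assembly, had 171, 182 and 190 CPM in MDA-MB-231, against 14.1 (BT-20) to 124 CPM (BT-549) with a median of 52.7 CPM elsewhere (log2 fold change 1.86 ± 0.11, adjusted p = 1.93e-19). NDUFAF8 had 100, 114 and 129 CPM in HCC38, against 9.64 (MDA-MB-436) to 67.0 CPM (HCC1937) with a median of 30.8 CPM elsewhere (1.84 ± 0.12, adjusted p = 2.45e-18). In both genes the line stood apart from all other libraries. NDUFAF8 stabilises NDUFAF5, an enzyme that hydroxylates NDUFS7, yet NDUFAF5 was highest in another line, HCC1187 (83.2 ± 13.4 CPM), and lowest in HCC70 (12.6 ± 1.04 CPM).

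NDUFAF4, a partner of NDUFAF3 on the ubiquinone module, had 64.4, 73.1 and 62.2 CPM in MDA-MB-436, against 7.33 (HCC70) to 48.4 CPM (BT-549) with a median of 19.4 CPM elsewhere (1.71 ± 0.11, adjusted p = 1.20e-18). NDUFAF3 itself was highest in MDA-MB-453 (18.2 ± 0.29 CPM) and lowest in HCC1806 (4.27 ± 0.87 CPM). HCC1806 held 2 changes of opposite sign. FOXRED1, a flavin-binding assembly factor, had 5.32, 5.22 and 7.28 CPM there, against 8.55 (HCC1143) to 66.2 CPM (HCC1937) with a median of 26.8 CPM elsewhere (-2.08 ± 0.19, adjusted p = 1.92e-13). NDUFAF7, a protein arginine methyltransferase, had 96.0, 104 and 100 CPM there, against 15.5 (BT-549) to 62.8 CPM (MDA-MB-468) with a median of 31.5 CPM elsewhere (1.66 ± 0.09, adjusted p = 1.33e-21). Neither gene overlapped the other lines. NUBPL, which delivers iron-sulphur clusters to the enzyme, varied least of all assembly factors (39.6 ± 1.93 CPM in HCC1937 and 14.8 ± 1.98 CPM in MDA-MB-157), and NDUFAF6 was highest in HCC70 (77.6 ± 4.51 CPM) and lowest in MDA-MB-436 (17.1 ± 0.82 CPM).

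**Figure D3:**
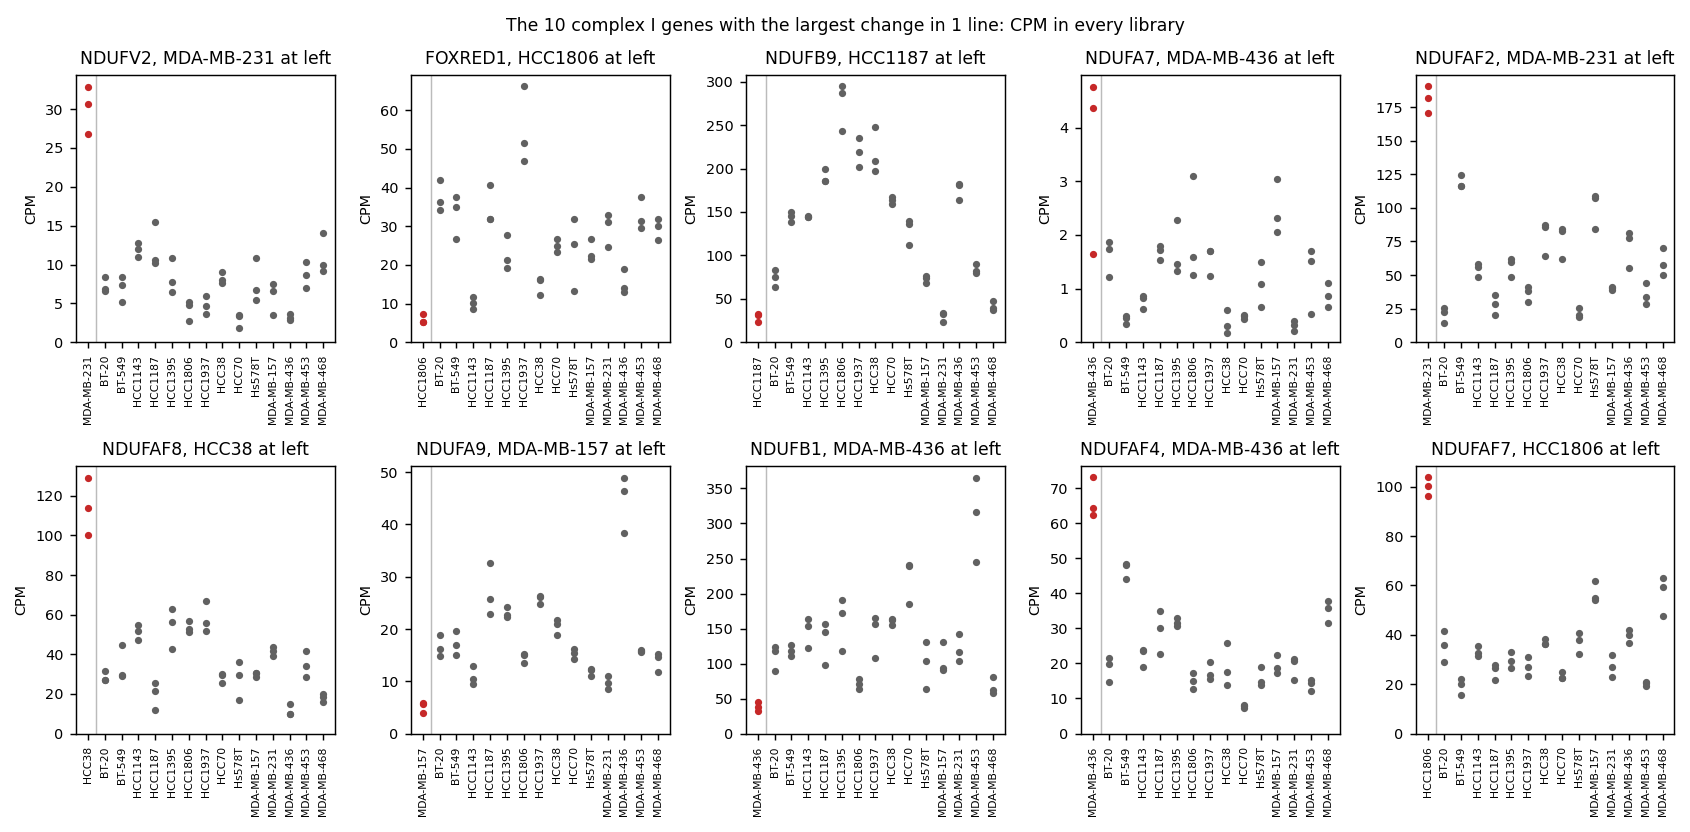
CPM in every library for the 10 complex I genes with the largest called change in 1 line, that line in red at the left of each panel and the other 14 lines in grey; each point is 1 library and the y axes differ. In 8 of the 10 panels the red points lie outside all grey points, and in those of NDUFB9 and NDUFA7 they overlap them.

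The genes next to some members on the chromosome moved with them. For each of the 10 changes, the 10 tested genes nearest on each side were taken in the same line. NDUFA9 in MDA-MB-157 had a log2 fold change of -1.76 and the median of its 20 neighbours was -1.76, with 12 of 20 called lower, against 26.2% of all genes in that line. NDUFB9 in HCC1187 stood at -2.03 and its neighbours at -1.68 (13 of 20 called lower, 22.8% of all genes). NDUFAF7 in HCC1806 stood at 1.66 and its neighbours at 1.12 (13 called higher, 31.4% of all genes). FOXRED1 in HCC1806 stood at -2.08 and its neighbours at -0.89 (10 called lower, 23.6%), and NDUFB1 in MDA-MB-436 at -1.75 and its neighbours at -0.75 (8 called lower, 24.3%). The median of the neighbours was nearer to 0 in the other 5. It was 0.50 beside NDUFAF2 in MDA-MB-231 (10 called higher, 27% of all genes) and 0.44 beside NDUFAF4 in MDA-MB-436 (12 called higher, 30.6%). Beside NDUFV2 in MDA-MB-231 it was 0.31 and beside NDUFAF8 in HCC38 0.21, with 7 of 20 called higher in either case. Beside NDUFA7 in MDA-MB-436 it lay on the other side of 0 (-0.19, with 4 called higher). The median of all genes in these lines lay between -0.04 and 0.09. In GENCODE 29 (GRCh38), NDUFV2 (ENSG00000178127.12) lies at chr18:9102630-9134345, FOXRED1 (ENSG00000110074.10) at chr11:126269055-126278131, NDUFB9 (ENSG00000147684.7) at chr8:124539101-124580648, NDUFAF2 (ENSG00000164182.10) at chr5:60945129-61153037 and NDUFAF8 (ENSG00000224877.3) at chr17:81239239-81241281. NDUFA9 (ENSG00000139180.10) lies at chr12:4649095-4694317 and NDUFAF7 (ENSG00000003509.15) at chr2:37231631-37253403, these 7 on the plus strand. On the minus strand are NDUFA7 (ENSG00000267855.5) at chr19:8308768-8321396, NDUFB1 (ENSG00000183648.9) at chr14:92116122-92121917 and NDUFAF4 (ENSG00000123545.5) at chr6:96889313-96897881.

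The same held over the 15 lines as a whole. Across 15 line sums, Pearson's r between a member and the mean of its 20 nearest tested protein-coding genes had a median of 0.702 over 47 members, and 40 of them (85.1%) exceeded 0.5. Over 14571 protein-coding genes the median was 0.515, and 51.8% exceeded 0.5. These genes were not matched to the members by level. The highest values were those of NDUFAF7 (0.938), NDUFB9 (0.935), NDUFA11 (0.920), NDUFS6 (0.914) and NDUFAB1 (0.896), and the lowest that of NDUFS3 (0.292). With the mean of the other 46 complex I genes the median r was 0.295, and 10 members had a negative value. For 45 of 47 members the neighbours gave the higher r, the exceptions being NDUFB7 and NDUFC1. The same count was not made for other genes, so whether it is particular to complex I genes was not tested. With 1 replicate number at a time the median r with the neighbours lay between 0.625 and 0.701. These are descriptions over 15 lines that share libraries and scaling, the stretch of 20 neighbours was 0.366 to 11.9 Mb long, and some members share exon bases with a neighbour.

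**Figure D4:**
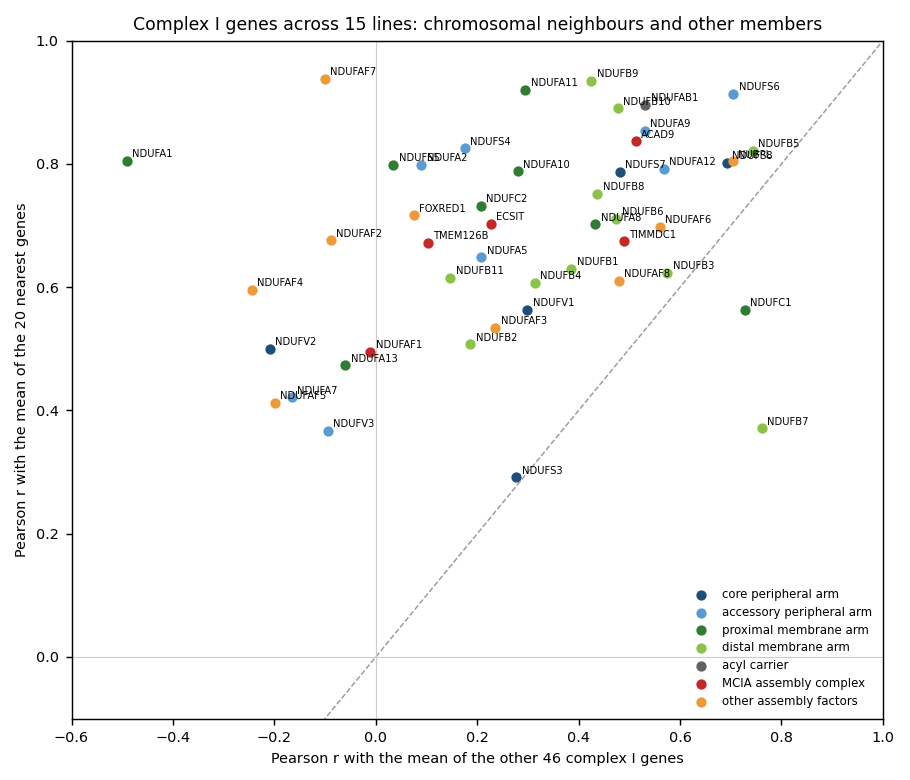
Pearson's r across 15 lines of each of the 47 complex I genes with the mean of its 20 nearest tested protein-coding genes (y axis) and with the mean of the other 46 complex I genes (x axis), coloured by role; the dashed line marks equal values. Points above it, 45 of 47, followed their chromosomal neighbours more closely than the other complex I genes. The same count was not made for genes outside the set.

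Pairs of complex I genes varied together only weakly. Over 1081 pairs the median r across line sums was 0.094 and 63.7% of pairs were positive, against a median of 0.012 and 51.5% over all pairs of 15051 protein-coding genes. With TMM factors from genes with 10 counts in every line sum the median was 0.028 and 54.3% of pairs were positive, against 0.002 and 50.2% over all pairs, and with replicate 3 alone the median was 0.025. The median was 0.137 between subunits, 0.008 between assembly factors and 0.074 between a subunit and an assembly factor. NDUFB3, a distal membrane arm subunit, and NUBPL had the highest value (r = 0.919, Spearman's rho = 0.900, and r = 0.884 without HCC38 and HCC70, the lines farthest from the median of NDUFB3). Both genes had their 4 highest lines among HCC38, BT-20, HCC70, HCC1937 and MDA-MB-453. NDUFS6 and ACAD9 came next (r = 0.869, rho = 0.896, and 0.832 without MDA-MB-157 and HCC1187), then TIMMDC1 and NUBPL (0.849), NDUFB5 and NUBPL (0.823), and NDUFS4 and NDUFAF2 (0.796), which both lie on chromosome 5. The lowest were NDUFV2 with NDUFB4 (-0.688, and -0.484 without MDA-MB-231 and MDA-MB-436), NDUFV2 with NDUFB9 (-0.661 and -0.533 without the same lines), NDUFS7 with NDUFA1 (-0.627 and -0.310 without MDA-MB-157 and HCC1143), NDUFB4 with NDUFAF5 (-0.606 and -0.604 without MDA-MB-231 and HCC70), and NDUFAF7 with FOXRED1 (-0.600 and -0.271 without HCC1806 and MDA-MB-453). These pairs were picked as extremes of 1081, so their values are descriptions.

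The promoters of the 2 pairs with the highest r are shown to set out the letters these genes hold around their start. They come from RefSeq (GRCh38.p14), from 250 bases before to 50 after the start of the gene, on the strand of the gene, with the matches of 4 motifs in capitals. The motifs, searched on both strands, were CACGTG (MYC and MAX), TGCGCA (NRF1), CCGGAAG (ETS factors with GABPA) and AAGATGG (YY1). NDUFB3 lies at chr2:201071751-201072050, NUBPL at chr14:31561154-31561453, NDUFS6 at chr5:1801157-1801456 and ACAD9 at chr3:128879370-128879669, all on the plus strand.
NDUFB3: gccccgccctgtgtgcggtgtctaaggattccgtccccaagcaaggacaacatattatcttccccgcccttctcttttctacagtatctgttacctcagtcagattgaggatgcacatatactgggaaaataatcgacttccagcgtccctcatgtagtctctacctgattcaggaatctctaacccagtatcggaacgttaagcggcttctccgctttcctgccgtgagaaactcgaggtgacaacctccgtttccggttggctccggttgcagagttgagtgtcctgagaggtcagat
NUBPL: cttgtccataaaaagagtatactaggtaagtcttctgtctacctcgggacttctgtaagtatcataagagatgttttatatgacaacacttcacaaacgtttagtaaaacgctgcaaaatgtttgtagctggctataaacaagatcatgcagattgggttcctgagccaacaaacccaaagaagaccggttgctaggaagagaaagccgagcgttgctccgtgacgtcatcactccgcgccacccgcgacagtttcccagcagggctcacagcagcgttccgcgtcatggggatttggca
NDUFS6: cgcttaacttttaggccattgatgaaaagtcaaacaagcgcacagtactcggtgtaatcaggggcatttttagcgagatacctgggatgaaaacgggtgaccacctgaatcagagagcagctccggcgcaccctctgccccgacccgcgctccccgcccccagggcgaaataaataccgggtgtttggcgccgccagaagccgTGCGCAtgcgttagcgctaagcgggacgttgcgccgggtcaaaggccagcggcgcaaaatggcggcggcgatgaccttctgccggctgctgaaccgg
ACAD9: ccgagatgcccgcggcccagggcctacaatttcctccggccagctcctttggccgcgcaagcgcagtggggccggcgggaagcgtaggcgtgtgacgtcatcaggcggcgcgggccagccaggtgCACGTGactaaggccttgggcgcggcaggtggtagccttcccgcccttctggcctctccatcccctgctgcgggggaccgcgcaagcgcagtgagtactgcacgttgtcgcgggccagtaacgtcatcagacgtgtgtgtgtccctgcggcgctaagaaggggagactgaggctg
NDUFB3 and NUBPL held none of the 4 motifs. NDUFS6 held TGCGCA with its first base at position -47 and ACAD9 held CACGTG with its first base at position -125, counted from the start of the gene, so neither pair shared a motif. The table had a promoter for 44 of the 50 genes. TGCGCA was in 12 of them (27.3%), against 8.42% of all 27305 promoters and 12.1% of those of the genes tested here. CACGTG was in 5 (11.4%, against 7.43% and 9.19%), CCGGAAG in 7 (15.9%, against 10.7% and 16.3%) and AAGATGG in 7 (15.9%, against 6.06% and 6.86%). A match is a string of letters and says nothing of binding.

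No complex I gene was called by medium with edgeR, and DESeq2 called 1. In edgeR's quasi-likelihood test on line sums of 5 L-15 against 8 RPMI 1640 lines, 0 of 47 genes were higher and 0 lower at an adjusted p under 0.05, as for all 20505 genes tested (0% in either direction). The smallest adjusted p of a member was 0.280. At an unadjusted p under 0.05, 0 of 47 genes had a positive and 5 of 47 a negative log2 fold change, against 5.83% and 5.6% of all genes. ACAD9 had 23.8 to 56.4 CPM with a median of 44.1 CPM in L-15 lines, against 38.8 to 133 CPM with a median of 97.3 CPM in RPMI 1640 lines (log2 fold change -1.14 ± 0.32, adjusted p = 0.280). DESeq2 called ACAD9 lower in L-15 lines (log2 fold change -1.16, adjusted p = 0.0161) and no other member, beside 2.22% of all genes in either direction, while the adjusted p of edgeR for ACAD9 lay between 0.218 and 0.480 over its other settings. NDUFS6 had 37.1 to 98.8 CPM (median 49.6) in L-15 lines, against 37.9 to 201 CPM (median 112) in RPMI 1640 lines (-1.09 ± 0.39, adjusted p = 0.354). NDUFB9 (-1.16 ± 0.50), NDUFAF6 (-0.89 ± 0.36) and NDUFAF8 (-0.96 ± 0.44) were the others. In each of the 5 the groups overlapped. Some settings left fewer genes with an unadjusted p under 0.05, namely 2 negative without HCC1937, 2 negative and 1 positive without MDA-MB-157, 3 negative without HCC1806, HCC38, MDA-MB-468 or replicate 2 of every line, and 2 negative in the 11 lines of runs 3, 4 and 5. The medians over all members and over all genes were alike, at -0.025 and -0.030, with 23 members above 0 and 24 below. Medium and cell line cannot be told apart, since each line was grown in 1 medium.

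No complex I gene had a called slope on MYC. MYC ranged from 193 CPM in MDA-MB-231 to 16.4 CPM in MDA-MB-453 over line sums. Over 15 line sums, the slope against log2 CPM of MYC was called rising for 0 and falling for 0 of 47 genes, beside 0.00376% rising and 0.139% falling of 26614 genes, and the smallest adjusted p of a member was 0.618. At an unadjusted p under 0.05, 3 of 47 genes had a positive and 0 of 47 a negative slope, against 2.69% and 3.42% of all genes. DESeq2 called 0 rising and 0 falling, beside 1% of all genes in either direction. NDUFAF2 had a slope of 0.57 ± 0.21 (SE) log2 units per log2 unit of MYC (adjusted p = 0.618), NDUFS4 of 0.39 ± 0.17 (adjusted p = 0.767) and NDUFA12 of 0.37 ± 0.17 (adjusted p = 0.808). NDUFAF2 was highest in MDA-MB-231, the line with the most MYC, and NDUFS4 and NDUFA12 were second highest there. Without MDA-MB-231 the slopes were 0.40, 0.35 and 0.31, and 0 genes had an unadjusted p under 0.05, as in the 11 lines of runs 3, 4 and 5 alone. The 3 became 1 without MDA-MB-157, without MDA-MB-468 or without replicate 2 of every line. The median slope was 0.015 over the members and 0.009 over all genes, with 28 members above 0 and 19 below. Without MDA-MB-453, the line with the least MYC, it was 0.126 over the members and -0.004 over all genes. The smallest adjusted p of a member in edgeR's test was 0.999 in that setting.

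**Figure D5:**
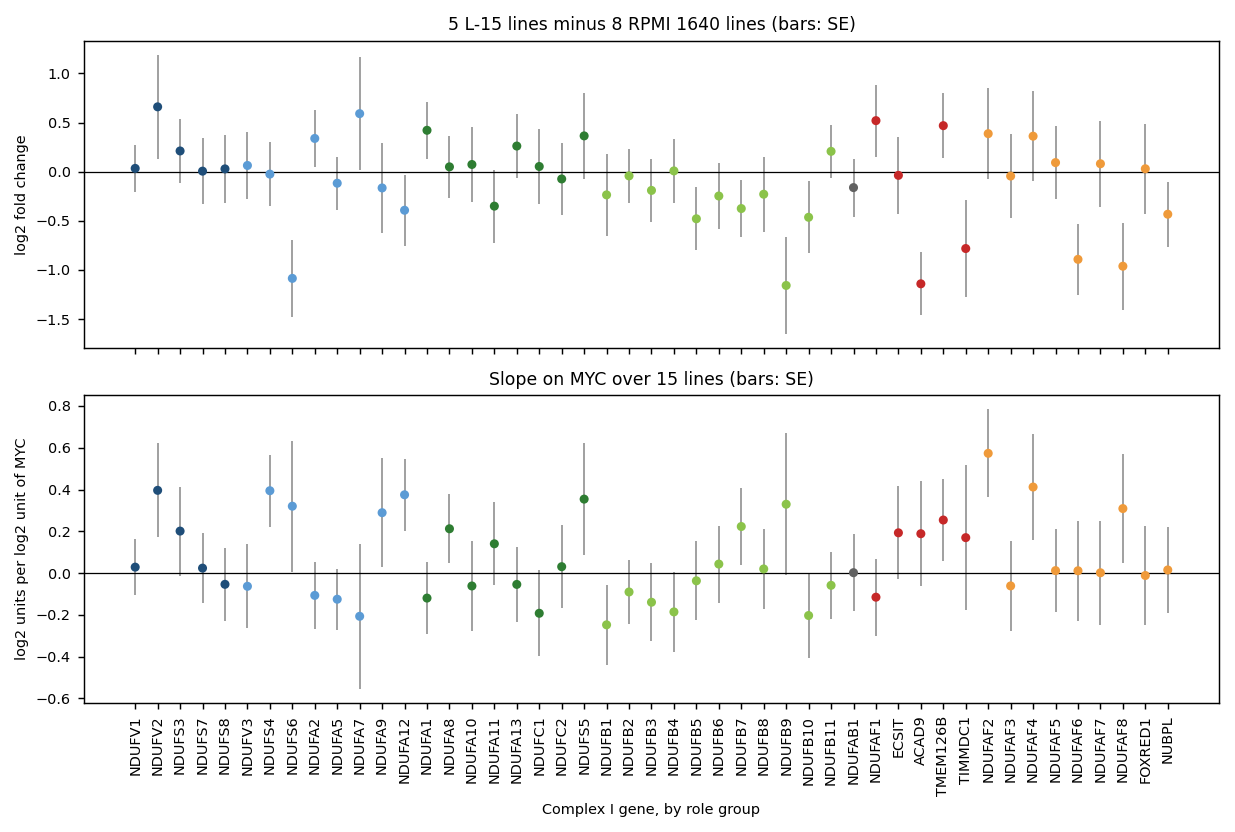
Upper panel: log2 fold change of 5 L-15 lines against 8 RPMI 1640 lines for each of the 47 complex I genes; lower panel: slope on log2 CPM of MYC over 15 line sums; points are edgeR estimates with SE bars, coloured by role. The estimates lie on both sides of 0 in either panel, with ACAD9 (-1.14), NDUFS6 (-1.09) and NDUFB9 (-1.16) lowest by medium and NDUFAF2 (0.57) highest by MYC.

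Further lists were set up for comparison, with earlier results of these data known. All 11 tested of a list of other assembly and associated genes (TMEM70, TMEM186, COA1, DMAC1, DMAC2, TMEM242, TMEM126A, AIFM1, OXA1L, CHCHD4 and NDUFA4L2) differed among the lines, with 50 higher (30.3% of 165) and 50 lower single-line calls (30.3%), and edgeR called 0 by medium or MYC. These shares compare with 30.4% and 23.9% over all genes. The 12 genes of other enzymes that feed the ubiquinone pool (SDHA, SDHB, SDHC, SDHD, ETFA, ETFB, ETFDH, DHODH, GPD2, SQOR, PRODH and CHDH) all differed among the lines too, with 66 higher (36.7% of 180) and 62 lower calls (34.4%). None of the 11 tested by medium and none of the 12 tested by MYC was called. GPD2, the glycerol phosphate dehydrogenase of the inner membrane, had 551 CPM in HCC70, its highest line, and 28.6 CPM in MDA-MB-157, and SQOR, which oxidises sulphide, had 103 CPM in MDA-MB-453, against 2.05 CPM in MDA-MB-157. MDA-MB-157, the line with the most lower complex I genes, was lowest in both and also in SDHA (175 CPM), ETFB (10.5 CPM) and DHODH (5.88 CPM), that is in 5 of the 12, and the lowest line was another in the remaining 7. Of the 11 other assembly and associated genes it was lowest in 1, DMAC2 (6.84 CPM). How often this line was lowest over all genes was not counted.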

How the data were processed

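RNA of 15 breast cancer cell lines, 3 libraries each, was measured as reads per gene. Per the labels' protocols, RNA was purified with RNeasy, cleared of ribosomal RNA with Ribo-Zero Gold and prepared with ScriptSeq v2. The tools, per the submitters' processing notes, were bcl2fastq 2.20.0.422, FastQC, MultiQC, Trimmomatic, STAR, featureCounts, with GRCh38.p12. Not given in the sources used here: other versions, the annotation, strandedness and the treatment of multi-mapping reads. What the authors deposited is a table of raw counts per gene.

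From these, CPM with TMM scaling was computed in edgeR 4.0.16 (R 4.3.3, prior count 2 for log2 values). The filter was filterByExpr, given each fit's design (minimum count 10, minimum total 15), which left 20587 genes over libraries. Quasi-likelihood tests were two-sided with Benjamini-Hochberg adjustment over all genes tested at 0.05, and SE is the absolute log2 fold change over the square root of F. Line contrasts used 45 libraries, medium and MYC tests line sums, with MYC itself left out. Symbols and positions are from GENCODE 29 (GRCh38), and 6165 identifiers without a match held 0.0785% of counts. Scripts were tested on simulated data. The members, lists, tests and the rule for named genes were chosen with earlier results of these data known. Named are the most and least variable gene of each role, the 10 largest single-line changes, the smallest p by medium and MYC, genes with under 10 counts in a line, and the genes of the 5 highest and 5 lowest pairs. Some further levels were chosen after their values were seen. Replicates differed by more than counting noise in every pair of libraries. For the 11 lines of runs 3, 4 and 5, the labels give 1 run to each replicate number, and deviations from the line mean had a median correlation of 0.056 between lines with the same number and -0.030 with different numbers. DESeq2, other scalings, no filter, left-out libraries and lines, run terms and a replicate block were the alternatives.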

Additional observations from a re-analysis of the deposited data

Results flagged for a closer look

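Among the 94 groups of 5 or 8 lines in which a sample far from the others was looked for, one medium and one gene at a time, 5 held such a line, and chance gives about 1 in 20 groups. The values are log2 CPM of line sums. NDUFB6 stood at 6.3851 in HCC70, the highest of the 8 RPMI 1640 lines, and the next line stood at 5.5621. NDUFB9 stood at 4.8193 in HCC1187, the lowest of the RPMI 1640 lines, and the next at 7.0784. NDUFB10 stood at 6.6695 in MDA-MB-453, the highest of the 5 L-15 lines, and the next at 5.3796. ACAD9 stood at 5.2903 in HCC1187, the lowest of the RPMI 1640 lines, and the next at 6.2939. NDUFAF7 stood at 6.7446 in HCC1806, the highest of the RPMI 1640 lines, and the next at 5.265.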

How the results depend on the processing

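In every setting tried over all 45 libraries, the number of complex I genes that differed among the lines was 46. That is of 47 tested, or of 50 without the expression filter. The number was 40 within the 4 lines of runs 1 and 2 with run as a term, beside 14282 of all 17758 genes tested. With the replicate number as a block, 46 genes differed, 228 single-line comparisons were higher and 230 lower, and the pairing changed no call of a named gene. No fit with a block was possible for line sums, which pool the replicates. Leaving out replicate 1, 2 or 3 of every line gave 181 to 208 higher and 167 to 215 lower comparisons. Pooled shares over all genes were not worked out for the block or the left-out replicates, so these counts have no background. Among the repeats of the tests of named genes, 398 kept their direction and their side of the threshold and 1 did not. That was ACAD9 by medium with DESeq2, so that the members called lower in L-15 lines numbered 1, against 0 with edgeR, and the cause was not tested. The ratio of the highest to the lowest level per kilobase was 302 with the longest transcript and 440 with exons not shared with another gene, against 649 with all exons, and NDUFS5 and NDUFS4 led under each.

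The median r among complex I genes was 0.028 with TMM factors from genes with 10 counts in every line sum, 0.063 with replicate 1 alone and 0.025 with replicate 3 alone, against 0.094, and leaving out each line in turn gave 0.077 to 0.102. The median r with the 20 neighbours was 0.625 with replicate 2 alone, against 0.702, and 0.687 to 0.726 without 1 line. The correlations with neighbours, the repeats of both kinds of correlation and the level per unshared exon length were chosen after seeing the data. Depth limits NDUFA7 most, and 3 genes could not be tested.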
